A study of Mus musculus with 88 samples.

Results

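The Tsc22d family was followed across every nuclear RNA library of a study of contextual fear conditioning (CFC), in which mice learn to link a new chamber with a foot shock. Its 4 members, Tsc22d1, Tsc22d2, Tsc22d3 (also called Gilz) and Tsc22d4, were taken from the count tables by matching Ensembl gene identifiers to symbols in GENCODE vM21, and are 4 of the 53749 genes listed. All animals were male C57BL/6J mice, 4 months of age. In the first experiment, mice received a single injection of corticosterone at 2 mg/kg in a cyclodextrin complex or of saline, and hippocampal nuclei were taken 30 minutes later. Fixed nuclei were sorted into PU.1+ (microglia), GFAP+ (astrocytes), 3X- (negative for NeuN, GFAP and PU.1, and so enriched for oligodendrocytes) and NeuN+ (neurons), with 4 libraries for each population and treatment. In the second experiment, NeuN- (non-neuronal) and NeuN+ nuclei were sorted from the hippocampus (HIP, 4 libraries for each condition) and the medial prefrontal cortex (mPFC, 3 libraries for each) of naive home cage mice and of mice 10 or 30 minutes after CFC (CFC10 and CFC30). Peaks of γH2AX, a histone mark laid down at DNA double-strand breaks, came from whole tissue of naive and CFC30 mice and were deposited as a single list for each region.

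TSC22D proteins share a conserved TSC box next to a leucine zipper, through which they pair with each other, and each gene makes long and short forms from different start sites. Tsc22d3 encodes GILZ, the glucocorticoid-induced leucine zipper, a direct target of the glucocorticoid receptor that restrains NF-κB and AP-1 in immune cells. Tsc22d1 was first found as a transcript stimulated by TGF-β, while long forms of TSC22D1, TSC22D2 and TSC22D4 work with NRBP1 and the WNK kinases in the control of cell volume.

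The 3 count tables held 5935395 to 12758257 counts per library in the corticosterone experiment, 10561897 to 18271372 in the hippocampal CFC experiment and 10577263 to 16392677 in the mPFC. Hippocampal NeuN- naive replicates 3 and 4 held the same value for every gene and were counted as 1 sample, so 73 of 74 libraries were used and that group had n = 3. The labels did not state whether replicates came from separate animals, so p-values measure only the spread between these samples. The 4 sorted populations carried the markers of their labels, with neuronal RNA in the glial sorts and glial markers in the NeuN+ sort. Summed microglial markers were 6601 to 7152 CPM, the count scaled to the library total, in PU.1+ saline libraries and at most 50.1 CPM in 3X- saline libraries, and at least 9350 CPM of oligodendrocyte markers were present in 3X- saline nuclei. Astrocyte markers summed to at least 11450 CPM in GFAP+ and to 640 to 866 CPM in PU.1+ saline libraries. In NeuN+ saline nuclei, neuronal markers summed to 5134 to 5300 CPM, against 970 to 1385 CPM in GFAP+, 706 to 1062 CPM in PU.1+ and 425 to 584 CPM in 3X- saline libraries, and up to 3 of 7 microglial and up to 3 of 4 endothelial markers were at 0. In NeuN+ saline libraries, astrocyte markers summed to 282 to 303 CPM and oligodendrocyte markers to 113 to 122 CPM. Since these are bulk samples of sorted nuclei, fewer nuclei of a type and less RNA per nucleus cannot be told apart.

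Tsc22d3, the GILZ gene (ENSMUSG00000031431), was a glial gene in both regions. It lies on the minus strand of chrX:140539528-140600659 (GRCm38), a span of 61132 bases with 6 annotated transcripts, none of them overlapped by another gene. Counting covered exons and introns alike, so long and short forms could not be separated. The promoter windows that RefSeq gives for its start sites (build GRCm38.p6, 250 bases before to 50 after each start) are printed here because this is the family member that rose after corticosterone. Capitals mark the 6-base arm of the palindromic glucocorticoid receptor motif, AGAACA, or TGTTCT on the other strand.
Tsc22d3 chrX:140600473-140600772 (minus strand): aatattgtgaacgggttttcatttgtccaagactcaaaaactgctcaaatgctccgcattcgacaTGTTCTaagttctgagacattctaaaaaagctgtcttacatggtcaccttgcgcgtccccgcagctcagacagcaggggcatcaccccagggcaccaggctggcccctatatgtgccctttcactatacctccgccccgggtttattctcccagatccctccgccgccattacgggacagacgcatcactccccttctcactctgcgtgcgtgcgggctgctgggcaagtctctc
Tsc22d3 chrX:140548522-140548821 (minus strand): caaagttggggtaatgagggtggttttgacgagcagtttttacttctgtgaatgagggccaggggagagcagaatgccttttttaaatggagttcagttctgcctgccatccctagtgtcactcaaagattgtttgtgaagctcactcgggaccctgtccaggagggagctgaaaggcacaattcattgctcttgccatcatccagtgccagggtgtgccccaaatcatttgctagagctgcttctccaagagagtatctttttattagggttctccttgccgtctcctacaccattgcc
Tsc22d3 chrX:140542619-140542918 (minus strand): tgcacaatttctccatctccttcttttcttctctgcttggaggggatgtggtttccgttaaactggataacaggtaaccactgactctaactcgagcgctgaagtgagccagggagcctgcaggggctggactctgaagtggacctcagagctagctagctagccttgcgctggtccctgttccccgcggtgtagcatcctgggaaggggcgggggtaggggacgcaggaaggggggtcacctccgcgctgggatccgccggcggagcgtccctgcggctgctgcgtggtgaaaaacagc
Only the most upstream of the windows held such an arm, a match found on either strand in 19% of all 32851 RefSeq mouse promoter windows. None of the windows held the imperfect palindrome GNACANNNTGTNC, present in 0.475% of windows, or the full palindrome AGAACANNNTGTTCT, present in 0.00913%. Across the gene and the 5000 bases upstream there was likewise no match to either palindrome, which says only that these letters were not in this stretch.

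In saline-treated hippocampus, the order of Tsc22d3 levels per gene length was 3X- (2.66 FPKM, CPM for each kilobase of gene body), GFAP+ (1.89), PU.1+ (0.618) and NeuN+ (0.0109). In single libraries this was 151 to 184 CPM in 3X-, 89.2 to 149 CPM in GFAP+, 31.1 to 42.2 CPM in PU.1+ and 0.362 to 0.974 CPM in NeuN+ nuclei, the last resting on 3 to 8 counts for each library. No neighbouring pair in this order overlapped. After TMM scaling in edgeR, the level in 3X- nuclei was above that in GFAP+ nuclei by 0.55 on the log2 scale (SE 0.12, adjusted p = 0.000182), and the level in PU.1+ nuclei was below that in GFAP+ nuclei by a log2 difference of -1.76 (SE 0.14). Against NeuN+ nuclei the log2 difference was 7.63 in 3X-, 7.08 in GFAP+ and 5.32 in PU.1+ nuclei. In naive animals, NeuN- nuclei exceeded NeuN+ nuclei in the hippocampus (1.91 against 0.0153 FPKM, log2 difference 6.54) and in the mPFC (1.54 against 0.0176 FPKM, log2 difference 5.92). In these fits Tsc22d3 passed the minimum of 0.2 FPKM for testing through its glial and NeuN- groups alone. Most genes differed between any pair of populations, with 61.3% called for 3X- against NeuN+, 60.8% for GFAP+ against NeuN+, 68.1% for PU.1+ against NeuN+, 51.6% for 3X- against GFAP+, 64.1% for PU.1+ against GFAP+, 59.9% for 3X- against PU.1+, and 70.8% and 69.5% for NeuN- against NeuN+ in hippocampus and mPFC.

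**Figure D1:**
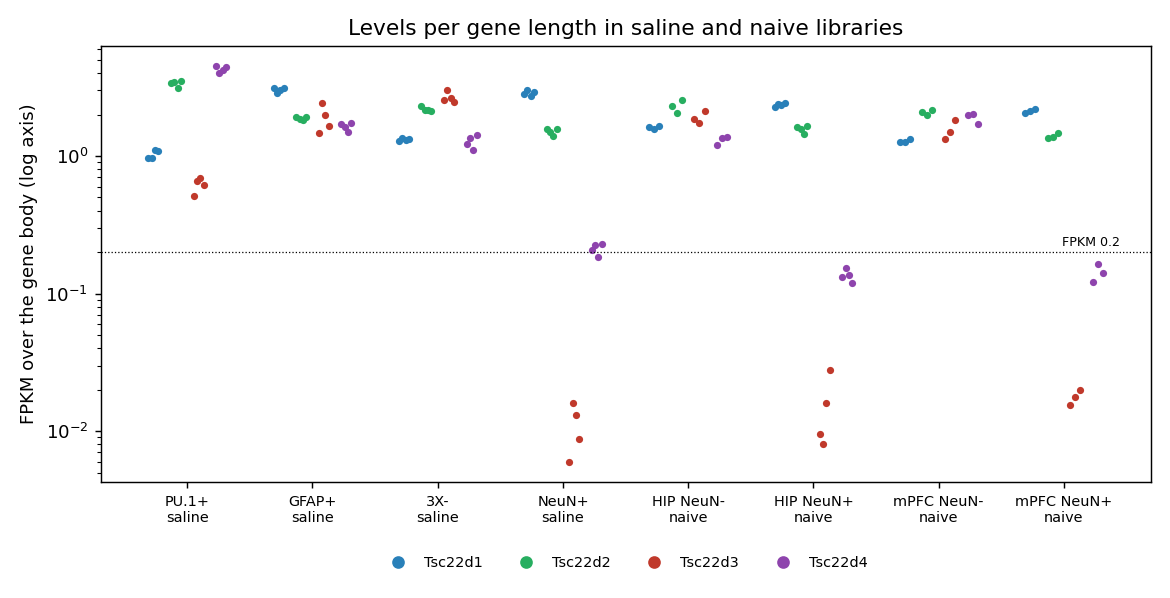
Levels of the 4 Tsc22d genes per gene length in control libraries, as FPKM over the gene body on a log axis. Each point is 1 library of saline-treated or naive mice, and the dotted line marks the minimum group mean of 0.2 FPKM for testing. Tsc22d3 sits between 0.5 and 3.1 FPKM in every glial library and under 0.03 FPKM in every NeuN+ library.

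Corticosterone raised Tsc22d3 in microglial and astrocytic nuclei within 30 minutes. PU.1+ nuclei held 181, 220.1, 116 and 151 CPM after corticosterone, against 31.1, 40.4, 42.2 and 37.5 CPM after saline. Every corticosterone library stood above every saline library, the means being 167 ± 44.3 CPM after corticosterone and 37.8 ± 4.85 CPM after saline (SD, n = 4 each). By edgeR's quasi-likelihood test this was a log2 fold change of 2.18 (SE 0.16, 95% interval 1.84 to 2.52), or 4.52-fold, with an adjusted p of 4.08e-07. In PU.1+ nuclei, 7.81% of the genes tested were called in either direction.

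GFAP+ nuclei held 225, 228, 187 and 203 CPM of Tsc22d3 after corticosterone, against 89.2, 149, 122 and 101 CPM after saline. The groups again did not overlap, with means of 211 ± 19.1 CPM after corticosterone and 115 ± 26.6 CPM after saline (SD, n = 4 each). The log2 fold change was 0.91 (SE 0.14, 95% interval 0.61 to 1.21, adjusted p = 0.0023), or 1.88-fold, in a comparison where 2.93% of genes were called. The ranges of the PU.1+ and GFAP+ libraries overlapped after corticosterone, at 116 to 220.1 and 187 to 228 CPM, and did not overlap after saline, at 31.1 to 42.2 and 89.2 to 149 CPM. Endothelial markers in GFAP+ libraries summed to 138 to 252 CPM after corticosterone, against 107 to 376 CPM after saline, with 0 of 4 called. Markers of mural cells summed to 169.5 to 233 CPM, against 200.4 to 302 CPM after saline, with 1 of 3 lower by the test. Of 7 astrocyte markers, 1 rose. The part of these cells in the GFAP+ result of Tsc22d3 was not tested.

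In 3X- nuclei, where saline levels were already the highest, Tsc22d3 was at 198, 198, 185 and 162 CPM after corticosterone, against 155, 184, 161 and 151 CPM after saline. These groups overlapped, with means of 186 ± 17.0 CPM after corticosterone and 163 ± 14.8 CPM after saline (SD, n = 4 each). The log2 fold change of 0.23 (SE 0.08, 95% interval 0.07 to 0.39) missed the threshold at an adjusted p of 0.0759, in a population where 7.48% of genes were called. It passed when corticosterone replicate 4 (0.29, adjusted p = 0.024) or saline replicate 2 (0.30, adjusted p = 0.0231) was left out, and with a replicate block (0.23, adjusted p = 0.0433). Oligodendrocyte markers in these libraries summed to 10092 to 11243 CPM after corticosterone, against 9350 to 9860 CPM after saline, with 1 of 6 higher and 1 lower by the test. Those of oligodendrocyte precursors summed to 1133 to 1381 CPM after corticosterone, against 926 to 1119 CPM after saline, with 3 of 3 higher. The part of these shifts in the results of Tsc22d3 and Tsc22d4 in 3X- nuclei was not tested.

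NeuN+ nuclei held 16, 10, 9 and 13 counts of Tsc22d3 after corticosterone, against 3, 7, 8 and 5 counts after saline. At 1.78, 1.38, 0.908 and 1.46 CPM after corticosterone, against 0.362, 0.974, 0.799 and 0.533 CPM after saline, the groups overlapped by a single pair of libraries. Both means were below the minimum of 0.2 FPKM, so the gene was not tested there. Without that filter the log2 fold change was 1.06 (SE 0.36, adjusted p = 0.188), and 2.06% of the genes tested in NeuN+ nuclei were called. Astrocyte markers in these libraries summed to 247 to 279 CPM after corticosterone, against 282 to 303 CPM after saline. Oligodendrocyte markers summed to 112 to 119 CPM and 113 to 122 CPM. The part of glial RNA in the Tsc22d3 counts of NeuN+ nuclei was not tested.

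The effects of corticosterone on Tsc22d3 differed between populations. These tests took libraries as independent, although the populations were gated in turn from the same hippocampal nuclei. In a fit with all 32 libraries, the log2 effect in PU.1+ nuclei exceeded that in GFAP+ nuclei by 1.27 (SE 0.18, 95% interval 0.90 to 1.64, adjusted p = 5.43e-06), where 2.14% of genes differed. The effect in 3X- nuclei differed from that in PU.1+ nuclei by -1.95 (SE 0.18, adjusted p = 1.67e-10), against 3.97% of genes, and from that in GFAP+ nuclei by -0.69 (SE 0.17, adjusted p = 0.028), against 1.42%. The last of these lost its call when any of 5 libraries was left out (-0.65 to -0.59 on the log2 scale), namely 3X- corticosterone replicate 4, 3X- saline replicate 2, GFAP+ corticosterone replicate 2 and GFAP+ saline replicates 1 and 4. None of the 3 differences from NeuN+ nuclei passed, and their intervals were wide, for example -0.20 to 2.41 for PU.1+ minus NeuN+, among comparisons that called 1.54% (PU.1+), 0.513% (GFAP+) and 2.00% (3X-) of genes. Tsc22d3 was in this fit through its glial groups alone, both NeuN+ means being under 0.2 FPKM, so these differences rest on low NeuN+ counts. Astrocyte markers in PU.1+ libraries summed to 926 to 1188 CPM after corticosterone, against 640 to 866 CPM after saline, and 2 of 6 tested astrocyte markers rose there. Endothelial markers in PU.1+ libraries summed to 110 to 227 CPM after corticosterone, against 162 to 190.1 CPM after saline. Of 4 tested endothelial markers, 1 rose there. The part of these cells in the Tsc22d3 result was not tested.

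**Figure D2:**
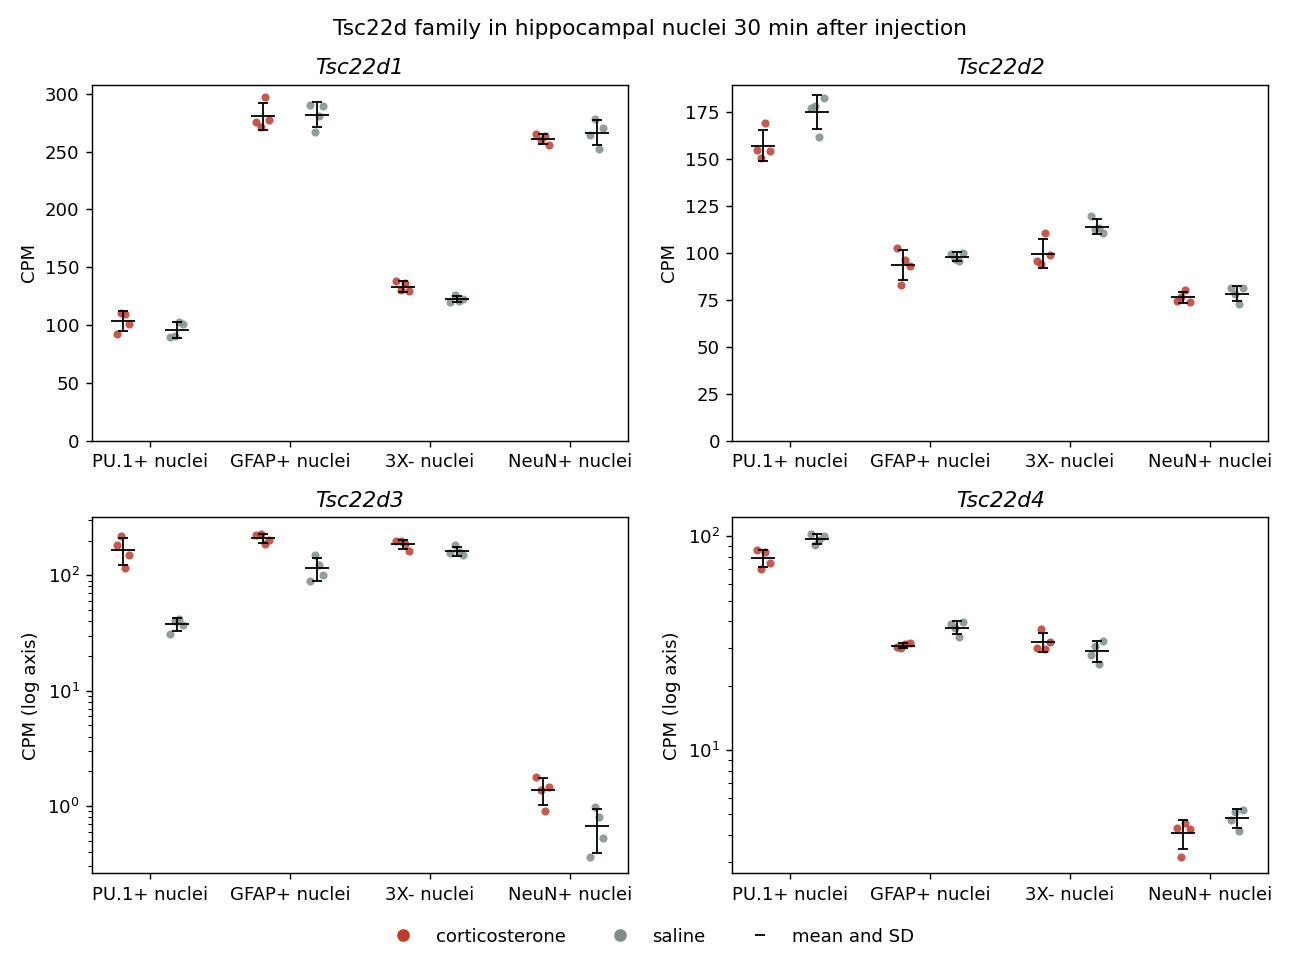
CPM of each Tsc22d gene in hippocampal nuclei 30 minutes after corticosterone (red, left) or saline (grey, right), with 1 point for each library and bars for mean and SD (n = 4 each). The axes of Tsc22d3 and Tsc22d4 are logarithmic and those of Tsc22d1 and Tsc22d2 are linear from 0. The separation is widest for Tsc22d3 in PU.1+ nuclei, at 116 to 220.1 CPM after corticosterone against 31.1 to 42.2 CPM after saline.

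Other genes known to be driven by glucocorticoids moved in all glial populations, 3X- included. Of a list of 25 such targets, which does not contain Tsc22d3, 16 of 21 tested rose in PU.1+ nuclei (median log2 fold change 0.89), 20 of 24 in GFAP+ nuclei (0.91), 19 of 22 in 3X- nuclei (1.16) and 5 of 15 in NeuN+ nuclei (0.19). Of all genes tested, 4.42% rose in PU.1+, 2.03% in GFAP+, 5% in 3X- and 1.26% in NeuN+ nuclei. Of these lists, 1 gene fell in NeuN+ nuclei and none in the others, and the median of all genes tested lay between -0.0032 and 0.0025 in each population. The targets were listed with earlier results of these data known, so their shares are not an independent measure beside those of all genes. Fkbp5, a chaperone that restrains the receptor, rose by 2.44 in PU.1+, 2.06 in GFAP+, 2.05 in 3X- and 0.55 in NeuN+ nuclei on the log2 scale. In PU.1+ nuclei the targets with the smallest adjusted p also included Glul (glutamine synthetase, 1.01) and the kinase Sgk1 (0.91). In GFAP+ nuclei they included Errfi1, an inhibitor of EGF receptor signalling (1.43), and the metallothionein Mt2 (0.97). In 3X- nuclei Errfi1 rose by 1.95 and the cell cycle inhibitor Cdkn1a by 4.28, and in NeuN+ nuclei the transcription factor Klf9 rose by 0.28 while the clock gene Per1 fell by 0.37. Tsc22d3 thus lay in the upper part of the list's range in PU.1+ nuclei, at its median in GFAP+ nuclei and near its lower end in 3X- nuclei. Nr3c1, the glucocorticoid receptor gene itself, fell in every population, by 0.36 in PU.1+, 0.37 in GFAP+, 0.43 in 3X- and 0.36 in NeuN+ nuclei on the log2 scale.

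**Figure D3:**
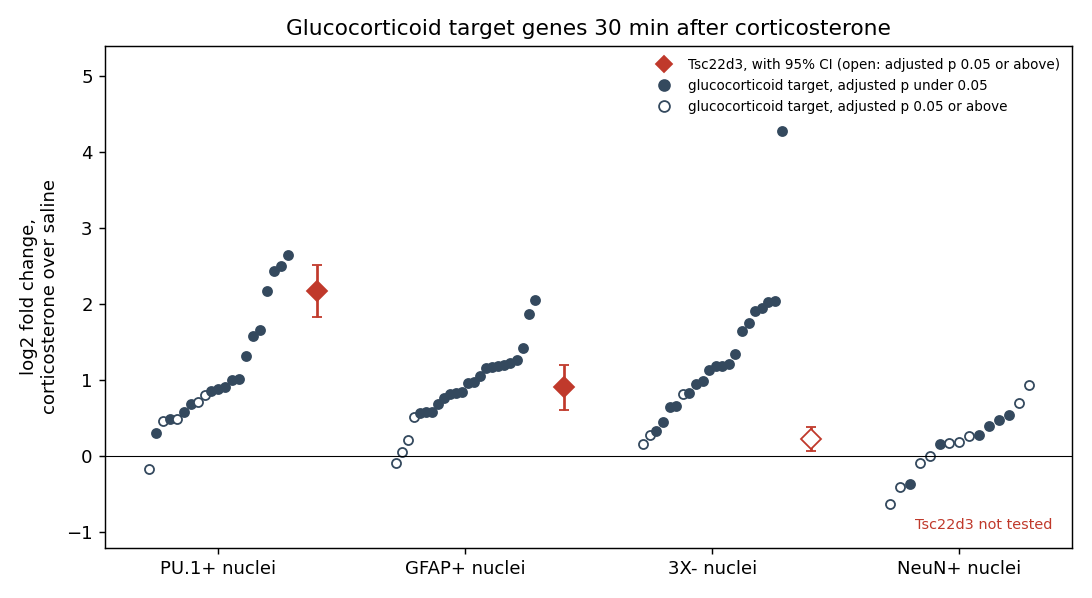
Log2 fold change (corticosterone over saline) of each tested glucocorticoid target in 4 hippocampal populations, ordered by size within a population, with Tsc22d3 as a diamond with its 95% confidence interval. Filled symbols passed an adjusted p of 0.05. In 3X- nuclei Tsc22d3 sits at 0.23 while the median target is at 1.16.

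After CFC, Tsc22d3 rose in non-neuronal nuclei of both regions. In the mPFC, NeuN- nuclei held 81.2, 91.0 and 111 CPM in naive mice, 214, 132 and 120 CPM at CFC10 and 164, 173 and 183 CPM at CFC30. No CFC library overlapped with a naive one. At CFC30 the mean was 173 ± 9.82 CPM, against 94.4 ± 15.2 CPM in naive mice (SD, n = 3 each), a log2 fold change of 0.91 (SE 0.17, adjusted p = 0.00518) or 1.87-fold, where 5.85% of genes were called. At CFC10 the mean was 155 ± 51.3 CPM, and the log2 fold change against naive mice was 0.73 (SE 0.17, adjusted p = 0.044) or 1.66-fold, where 1.71% of genes were called. That earlier call rested in part on CFC10 replicate 1, the library at 214 CPM: without it the log2 fold change was 0.42 (adjusted p = 0.0666). It was also lost without CFC10 replicate 2, CFC30 replicate 1 or any of the naive replicates (0.63 to 0.86), and with DESeq2 (adjusted p = 0.0874). CFC30 did not differ detectably from CFC10 (log2 difference 0.18, 95% interval -0.18 to 0.53, with 0.700% of genes called), but passed without CFC10 replicate 1 (0.49, adjusted p = 0.0299).

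In the hippocampus, NeuN- nuclei held 113, 107 and 131 CPM of Tsc22d3 in naive mice, 225, 152, 152 and 127 CPM at CFC10 and 166, 187, 197 and 156 CPM at CFC30. The CFC30 libraries all stood above the naive ones, with means of 176 ± 18.6 CPM at CFC30 (SD, n = 4) and 117 ± 12.3 CPM in naive mice (SD, n = 3), while CFC10 replicate 4 lay among the naive values. At CFC30 the log2 fold change was 0.59 (SE 0.14, 95% interval 0.29 to 0.90, adjusted p = 0.0389), or 1.51-fold, against 2.38% of genes called. It kept its direction but lost its call when any of 7 of the 11 libraries was left out (0.53 to 0.69, adjusted p up to 0.148). Those were CFC10 replicate 3, CFC30 replicates 1, 2 and 3 and each naive replicate. At CFC10 the mean of 164 ± 42.2 CPM gave a log2 fold change of 0.45 (SE 0.14, 95% interval 0.15 to 0.75) that missed the threshold at an adjusted p of 0.159, in a comparison where 0.345% of genes were called. CFC30 did not differ detectably from CFC10 (0.15, 95% interval -0.13 to 0.42, with 0.169% of genes called). Endothelial markers in hippocampal NeuN- libraries summed to 105 to 314 CPM at CFC30 and 136 to 189 CPM at CFC10, against 133 to 207 CPM in naive mice. In the mPFC they summed to 98.1 to 324 CPM at CFC30, against 99.3 to 191 CPM in naive mice, and microglial markers to 935 to 1085 CPM at CFC10 and 922 to 1102 CPM at CFC30, against 1212 to 1281 CPM in naive mice, with 2 of 7 lower by the test at each time. Oligodendrocyte markers summed to 5458 to 5693 CPM in mPFC NeuN- nuclei at CFC10 and 5201 to 5652 CPM at CFC30, against 4598 to 4970 CPM in naive mice, with 2 of 6 higher by the test at each time. Markers of their precursors summed to 481 to 577 CPM at CFC10 and 525 to 552 CPM at CFC30, against 595 to 648 CPM in naive mice, with 1 of 3 lower by the test at CFC10. In hippocampal NeuN- nuclei, oligodendrocyte markers summed to 4846 to 5862 CPM at CFC10 and 4997 to 5412 CPM at CFC30, against 4574 to 4864 CPM in naive mice. Choroid plexus markers reached 44.3 CPM in 1 hippocampal CFC10 library, where the median of the group was 2.77 CPM. The part of all these cells in the Tsc22d3 results after CFC was not tested.

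In NeuN+ nuclei of the CFC experiment, Tsc22d3 stayed at the edge of detection. The hippocampus had 0.495 to 1.69 CPM in naive mice, 0.916 to 1.61 CPM at CFC10 and 0.953 to 1.57 CPM at CFC30, which overlap. The mPFC had 0.851 to 1.22 CPM over all 9 libraries. The part of glial RNA in these low values was not tested. Without the filter, the log2 fold changes at CFC10 and CFC30 were 0.52 and 0.49 in the hippocampus and -0.16 and -0.0046 in the mPFC, none with an adjusted p under 0.521. In the fits over both fractions, Tsc22d3 passed the filter through its NeuN- groups alone. Whether CFC acted differently on Tsc22d3 in NeuN- and NeuN+ nuclei could not be resolved: the difference at CFC30 was 0.92 in the mPFC (95% interval -0.30 to 2.14) and 0.11 in the hippocampus (-0.90 to 1.12). No family member passed a test of this kind, which called 0.0312% of genes at CFC10 and 0.293% at CFC30 in the hippocampus, and 1.88% and 4.18% in the mPFC. Of the glucocorticoid targets, 11 of 23 tested rose and 1 fell at CFC30 in mPFC NeuN- nuclei (median 0.67), and 8 of 22 rose in hippocampal NeuN- nuclei (median 0.45), the 3 with the smallest adjusted p being Per1 (1.01), Fam107a (0.86) and Sgk1 (1.12) in the mPFC and Sgk1 (0.96), Fam107a (0.64) and Glul (0.34) in the hippocampus. Of all genes tested in these nuclei at CFC30, 2.68% rose in the mPFC and 1.2% in the hippocampus. At CFC10, 1 of 23 rose in the mPFC and 0 of 22 in the hippocampus, with medians of 0.30 and 0.28, where 0.74% and 0.122% of all genes rose. In NeuN+ nuclei at CFC30, 6 of 13 rose in the mPFC, led by Per1 (1.12), Klf9 (0.60) and Zbtb16 (0.47), and 4 of 15 rose and 1 fell in the hippocampus, where Errfi1 (0.47), Per1 (0.42) and Bcl6 (0.43) had the smallest adjusted p. Here 13.1% of all genes rose in the mPFC, and 4.67% rose and 3.89% fell in the hippocampus.

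**Figure D4:**
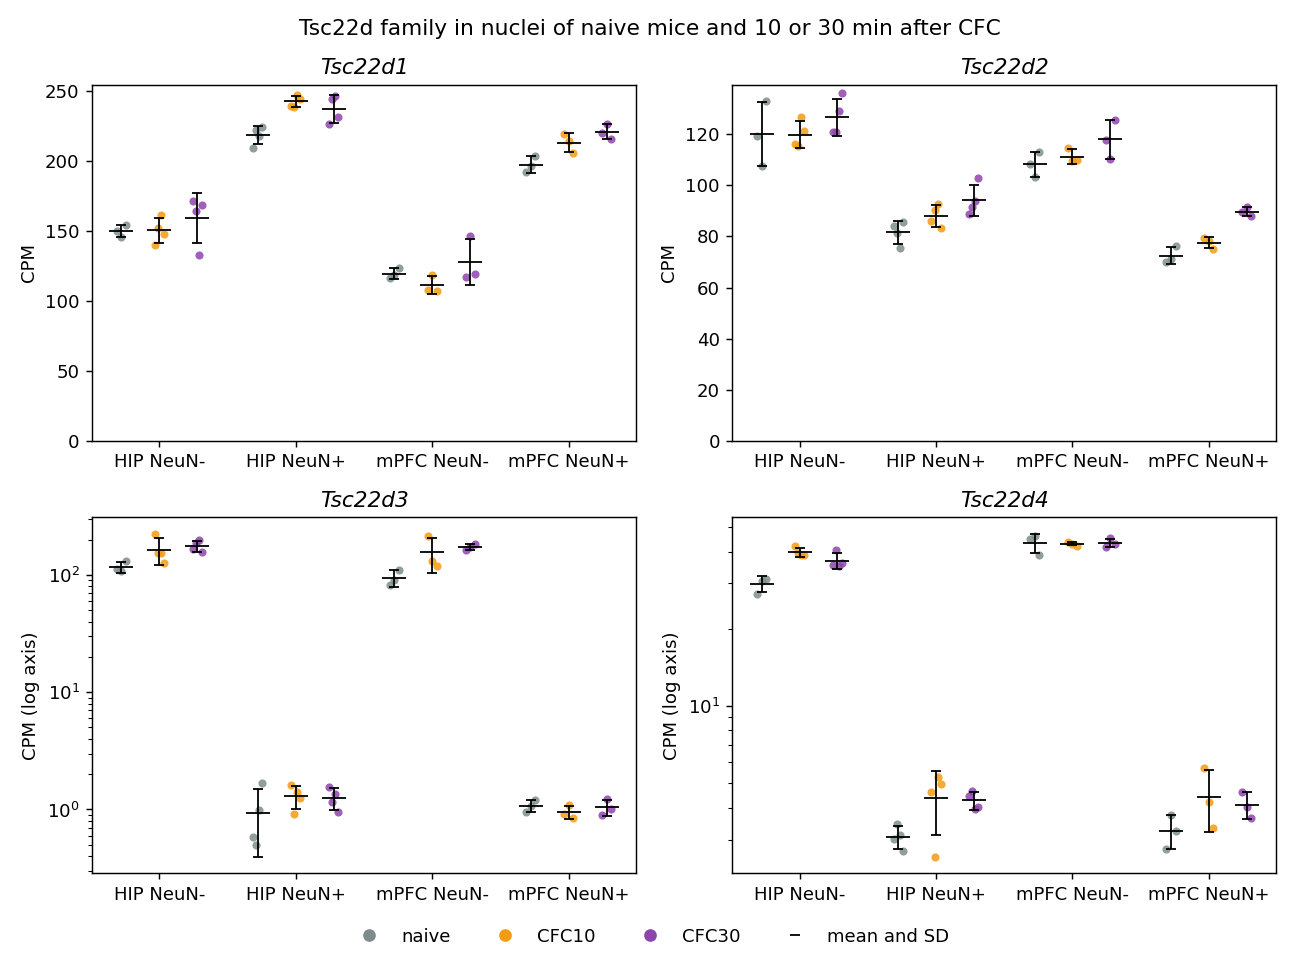
CPM of each Tsc22d gene in NeuN- and NeuN+ nuclei of hippocampus and mPFC, in naive mice (grey), at CFC10 (orange) and at CFC30 (purple), with 1 point for each library and bars for mean and SD (n = 3 or 4). The axes of Tsc22d3 and Tsc22d4 are logarithmic. Tsc22d3 in mPFC NeuN- nuclei runs from 81.2 to 111 CPM in naive mice and from 164 to 183 CPM at CFC30.

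Tsc22d4 (chr5:137745730-137768450, plus strand), a partner of the WNK pathway that also acts as a repressor of lipid genes in liver, was the most microglial member. Its level per gene length in saline nuclei was 4.29 FPKM in PU.1+, 1.64 in GFAP+, 1.28 in 3X- and 0.212 in NeuN+. Each neighbouring step passed the test, the smallest being 3X- against GFAP+ (log2 difference -0.30, SE 0.08, adjusted p = 0.00164), and PU.1+ exceeded NeuN+ by 3.85. NeuN- exceeded NeuN+ nuclei of naive mice by 2.80 in the hippocampus and 3.22 in the mPFC on the log2 scale. In these fits of the CFC experiment, Tsc22d4 passed the minimum of 0.2 FPKM through its NeuN- groups alone.

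After corticosterone, Tsc22d4 fell in PU.1+ nuclei. These held 86.5, 70.5, 84.2 and 74.9 CPM after corticosterone, against 103, 90.7, 96.0 and 100.0 CPM after saline. The groups did not overlap, at means of 79.0 ± 7.55 CPM after corticosterone and 97.4 ± 5.29 CPM after saline (SD, n = 4 each), and the log2 fold change was -0.27 (SE 0.07, 95% interval -0.41 to -0.12, adjusted p = 0.0278). The call was lost without corticosterone replicate 2 or 4 or saline replicate 1 or 4 (-0.26 to -0.22). Microglial markers in the same libraries summed to 6201 to 6548 CPM after corticosterone, against 6601 to 7152 CPM after saline, with 3 of 7 markers lower and 1 higher by the test. The part of this shift in the Tsc22d4 result was not tested. Of all genes tested, 7.81% were called in PU.1+ nuclei and 2.93% in GFAP+ nuclei. GFAP+ nuclei held 30.4, 30.0, 31.4 and 31.6 CPM after corticosterone, against 39.04, 37.1, 33.8 and 39.6 CPM after saline, which did not overlap either, but the log2 fold change of -0.23 (SE 0.07, 95% interval -0.38 to -0.08) had an adjusted p of 0.126. In 3X- nuclei it was 0.18 (95% interval -0.01 to 0.38) and in NeuN+ nuclei -0.19 (95% interval -0.53 to 0.14), both with overlapping groups. The effect in 3X- nuclei exceeded that in PU.1+ nuclei by 0.44 (SE 0.11, adjusted p = 0.00955). Against GFAP+ nuclei the same difference was 0.40 (SE 0.12, adjusted p = 0.0752), which passed with RLE size factors (0.42, adjusted p = 0.0458) and without 3X- corticosterone replicate 3 or GFAP+ saline replicate 3 (0.44 for both).

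After CFC, Tsc22d4 rose in hippocampal NeuN- nuclei by small steps. Naive libraries held 27.4, 30.8 and 31.3 CPM, CFC10 libraries 42.1, 39.5, 38.6 and 38.9 CPM, and CFC30 libraries 35.5, 40.7, 35.2 and 36.1 CPM. Every CFC library was above every naive one. Means were 39.8 ± 1.60 CPM at CFC10 and 36.9 ± 2.60 CPM at CFC30 (SD, n = 4 each), against 29.8 ± 2.16 CPM in naive mice (SD, n = 3). The log2 fold changes were 0.37 (SE 0.08, adjusted p = 0.0496) and 0.30 (SE 0.08, adjusted p = 0.0498), both at the edge of the threshold. Of all genes tested in these nuclei, 0.345% were called at CFC10 and 2.38% at CFC30. The call at CFC10 was lost with RLE size factors (adjusted p = 0.054) and in 9 of 11 fits with a library left out, and the call at CFC30 in 10 of 11, while the values stayed within 0.31 to 0.41 and 0.24 to 0.34. Oligodendrocyte markers in these libraries summed to 4846 to 5862 CPM at CFC10 and 4997 to 5412 CPM at CFC30, against 4574 to 4864 CPM in naive mice. Choroid plexus markers reached 44.3 CPM in 1 CFC10 library, where the median of the group was 2.77 CPM. Their part in the Tsc22d4 result was not tested. In mPFC NeuN- nuclei the log2 fold changes were -0.0067 at CFC10 (95% interval -0.17 to 0.16) and 0.03 at CFC30 (95% interval -0.14 to 0.19), on means of 42.9 ± 0.647 CPM at CFC10 and 43.2 ± 1.70 CPM at CFC30 against 43.2 ± 3.79 CPM in naive mice (SD, n = 3 each). Whether the response differed between the regions was not tested, since each region has its own library kit version. In NeuN+ nuclei Tsc22d4 was under the filter. Hippocampal libraries had 2.70 to 3.46 CPM in naive mice, 2.56 to 5.26 CPM at CFC10 and 3.94 to 4.66 CPM at CFC30, and without the filter the log2 fold changes were 0.51 (adjusted p = 0.0516) and 0.46 (adjusted p = 0.0898). In the mPFC they were 0.45 (adjusted p = 0.142) and 0.38 (adjusted p = 0.210), on 2.76 to 3.73 CPM in naive mice, 3.33 to 5.71 CPM at CFC10 and 3.64 to 4.61 CPM at CFC30.

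Tsc22d2 (chr3:58414715-58466783, plus strand), a large family member that also works with NRBP1, was present in every population. It was highest per gene length in PU.1+ saline nuclei (3.36 FPKM), then in 3X- (2.19), GFAP+ (1.88) and NeuN+ (1.5). PU.1+ exceeded 3X- nuclei, with a log2 difference of -0.41 for 3X- against PU.1+ (SE 0.06), and 3X- exceeded GFAP+ nuclei by 0.28 (SE 0.07), but GFAP+ and NeuN+ nuclei did not differ beyond the error under TMM scaling (-0.02, 95% interval -0.16 to 0.11). Scaling by library totals alone put GFAP+ above NeuN+ nuclei by 0.33 (adjusted p = 1.70e-05), a choice that moved the median of all genes by 0.294. The same holds for NeuN- against NeuN+ nuclei of naive mice, where TMM gave 0.09 in the hippocampus and 0.06 in the mPFC, not called, and library totals gave 0.56 and 0.58, called, with shifts of the median gene of 0.457 and 0.513.

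Tsc22d2 rose in neuronal nuclei of both regions 30 minutes after CFC. In mPFC NeuN+ nuclei, naive libraries held 70.2, 71.3 and 76.2 CPM, CFC10 libraries 79.3, 78.2 and 75.1 CPM and CFC30 libraries 89.7, 91.6 and 88.0 CPM. The CFC30 libraries stood above all others. The log2 fold change at CFC30 was 0.33 (SE 0.05, 95% interval 0.22 to 0.44, adjusted p = 5.44e-05), or 1.25-fold, on means of 89.8 ± 1.78 CPM at CFC30 and 72.5 ± 3.18 CPM in naive mice (SD, n = 3 each). In this comparison 24.7% of all genes tested were called. At CFC10 it was 0.09 (95% interval -0.02 to 0.20), where 14.4% of genes were called. CFC30 exceeded CFC10 by 0.23 (SE 0.05, adjusted p = 0.0197), where 1.29% of genes were called, a call that 4 of 9 fits with a library left out did not keep (0.22 to 0.23, without CFC10 replicate 2 or 3 or CFC30 replicate 1 or 2).

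In hippocampal NeuN+ nuclei, Tsc22d2 was at 84.0, 81.4, 75.5 and 85.8 CPM in naive mice, 85.9, 90.3, 92.6 and 83.2 CPM at CFC10 and 88.8, 91.6, 93.7 and 103 CPM at CFC30. The CFC30 and naive groups did not overlap, at 94.2 ± 6.06 CPM at CFC30 and 81.7 ± 4.49 CPM in naive mice (SD, n = 4 each). The log2 fold change was 0.19 (SE 0.06, adjusted p = 0.0327), or 1.14-fold, where 8.56% of genes were called. It was not called in a single fit over both fractions (0.20, adjusted p = 0.0957) or without CFC30 replicate 2 or 4 or naive replicate 2 or 3 (0.14 to 0.20). At CFC10 it was 0.07 (95% interval -0.05 to 0.19), where 4.86% of genes were called, and CFC30 against CFC10 gave 0.12 (95% interval 0.0097 to 0.24, adjusted p = 0.490), where 0.298% were. In NeuN- nuclei, Tsc22d2 was at 108 to 136 CPM over all hippocampal and 103 to 126 CPM over all mPFC libraries, with no call. After corticosterone it was lower in mean in PU.1+ nuclei (157 ± 8.25 CPM after corticosterone against 175 ± 9.03 CPM after saline, log2 fold change -0.12, adjusted p = 0.279) and in 3X- nuclei (99.8 ± 7.55 CPM after corticosterone against 114 ± 3.84 CPM after saline, -0.15, adjusted p = 0.283), neither of which passed. In GFAP+ and NeuN+ nuclei the values were -0.02 (95% interval -0.16 to 0.12) and -0.01 (95% interval -0.12 to 0.09).

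Tsc22d1 (chr14:76414961-76507765, plus strand, 92805 bases with 16 transcripts), the TGF-β-stimulated member, was highest in astrocytes and neurons. In saline nuclei its level per gene length was 3.04 FPKM in GFAP+, 2.87 in NeuN+, 1.32 in 3X- and 1.03 in PU.1+. CPM of single libraries overlapped between GFAP+ (267 to 290.5) and NeuN+ (253 to 278), and the order of these 2 populations depended on the scaling. TMM put GFAP+ below NeuN+ nuclei by a log2 difference of -0.27 (SE 0.06, adjusted p = 6.02e-05), while library totals alone gave 0.08 (adjusted p = 0.204). The 3X- and PU.1+ nuclei were lower than NeuN+ nuclei, by -1.41 and -1.97, and NeuN- were lower than NeuN+ nuclei of naive mice by -1.01 in the hippocampus and -1.24 in the mPFC on the log2 scale. Corticosterone gave no call. Its log2 fold changes were 0.14 in PU.1+ (95% interval -0.0003 to 0.28), 0.04 in GFAP+ (-0.07 to 0.15), 0.16 in 3X- (0.02 to 0.31, adjusted p = 0.2) and -0.0055 in NeuN+ nuclei (-0.09 to 0.08). In 3X- nuclei the groups did not overlap, at 138, 130.1, 136 and 129 CPM after corticosterone, against 120, 126, 121 and 122 CPM after saline.

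Tsc22d1 rose in mPFC NeuN+ nuclei at CFC30. Naive libraries held 192, 196 and 204 CPM, CFC10 libraries 219, 214 and 206 CPM and CFC30 libraries 220.0, 226 and 216 CPM. All CFC libraries were above all naive ones. The log2 fold change was 0.18 at CFC30 (SE 0.05, 95% interval 0.09 to 0.28, adjusted p = 0.00551), or 1.13-fold, on means of 221 ± 5.35 CPM at CFC30 and 197 ± 5.91 CPM in naive mice (SD, n = 3 each), and 0.11 at CFC10 (95% interval 0.01 to 0.20, adjusted p = 0.138). Of all genes tested in mPFC NeuN+ nuclei, 24.7% were called at CFC30 and 14.4% at CFC10. In hippocampal NeuN+ nuclei, naive libraries held 209, 222, 218 and 224 CPM, CFC10 libraries 239, 239, 247 and 244 CPM and CFC30 libraries 226, 244, 247 and 232 CPM. These groups did not overlap with the naive one, but the log2 fold changes of 0.11 at both times missed the threshold (adjusted p = 0.109 and 0.115). With library totals alone CFC10 gave 0.15 and passed (adjusted p = 0.0343). Of all genes tested in hippocampal NeuN+ nuclei, 4.86% were called at CFC10 and 8.56% at CFC30. NeuN- nuclei gave -0.04 at CFC10 and 0.08 at CFC30 in the hippocampus, and -0.10 and 0.12 in the mPFC, with overlapping groups. Glial RNA in mPFC NeuN+ libraries differed as well: oligodendrocyte markers summed to 118 to 184 CPM at CFC30, against 64.3 to 86.2 CPM in naive mice, and astrocyte markers to 707 to 714 CPM, against 609 to 659 CPM in naive mice. Its part in the Tsc22d1 and Tsc22d2 results was not tested.

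**Figure D5:**
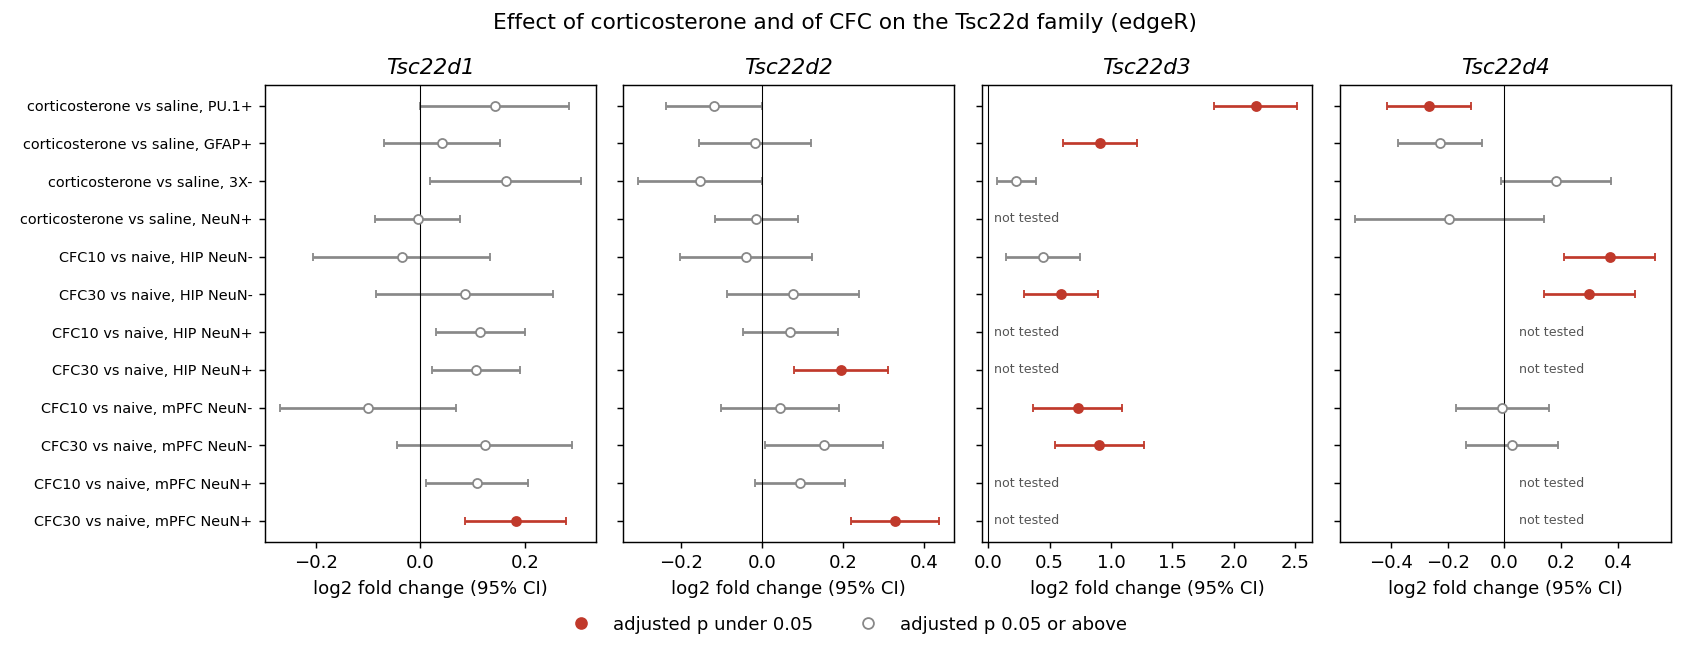
Log2 fold changes of the 4 Tsc22d genes with 95% confidence intervals (edgeR), for corticosterone over saline in 4 populations and for CFC10 and CFC30 over naive in 4 fractions. Red marks an adjusted p under 0.05, and the range of the axis differs between genes. Values run from -0.27 for Tsc22d4 to 2.18 for Tsc22d3, both in PU.1+ nuclei after corticosterone.

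Tsc22d1 was also the only member with a γH2AX peak in the lists used here. These may not hold every peak the authors called, so a peak at another member is not excluded. In the hippocampus, 1 of 282 peaks spanned chr14:76471884-76510589, 38706 bases that cover 38.66% of the gene and run 2824 bases past its 3′ end. In the mPFC, 1 of 260 peaks spanned chr14:76485956-76511181, 25226 bases that cover 23.5% of the gene and run 3416 bases past its end. Naive and CFC30 peaks were merged in these lists, so no change with CFC can be read from them. Both peaks leave out the start of the long transcripts Tsc22d1-202 and Tsc22d1-204, by 56923 and 70995 bases from the gene's start, and contain all of the short coding transcripts Tsc22d1-201, Tsc22d1-205, Tsc22d1-206 and Tsc22d1-214. The coding transcripts Tsc22d1-203 and Tsc22d1-208 also lay inside both peaks, and Tsc22d1-207 inside the hippocampal peak alone. RefSeq windows at the long and the short starts are shown to place the peaks, the first lying outside both of them and the others inside both. The RefSeq windows listed for the gene number 5, of which 1 holds a receptor arm, AGAACA in capitals. It lies inside both peaks, near the start of the short form Tsc22d1-214, and is shown between the other two.
Tsc22d1 chr14:76414711-76415010 (plus strand): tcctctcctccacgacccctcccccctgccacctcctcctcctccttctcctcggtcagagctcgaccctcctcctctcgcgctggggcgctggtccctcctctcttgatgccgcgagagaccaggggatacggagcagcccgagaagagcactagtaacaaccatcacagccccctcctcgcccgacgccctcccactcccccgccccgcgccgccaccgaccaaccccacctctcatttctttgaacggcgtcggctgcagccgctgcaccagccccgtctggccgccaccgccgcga
Tsc22d1 chr14:76503976-76504275 (plus strand): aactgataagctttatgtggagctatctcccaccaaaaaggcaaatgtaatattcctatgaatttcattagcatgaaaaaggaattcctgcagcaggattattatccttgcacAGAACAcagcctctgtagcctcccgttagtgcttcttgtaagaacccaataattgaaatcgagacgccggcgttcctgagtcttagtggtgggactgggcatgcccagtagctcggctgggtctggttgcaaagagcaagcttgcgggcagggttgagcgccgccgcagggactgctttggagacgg
Tsc22d1 chr14:76504260-76504559 (plus strand): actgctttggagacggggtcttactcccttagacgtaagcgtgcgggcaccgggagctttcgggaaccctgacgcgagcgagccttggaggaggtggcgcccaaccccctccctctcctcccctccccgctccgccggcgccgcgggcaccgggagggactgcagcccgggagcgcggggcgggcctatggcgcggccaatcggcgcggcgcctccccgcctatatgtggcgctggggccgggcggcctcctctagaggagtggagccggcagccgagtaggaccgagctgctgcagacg
The only match to the imperfect palindrome GNACANNNTGTNC in the family's 4 genes with their 5000 bases upstream lay in Tsc22d1, within the hippocampal peak and outside the mPFC peak. It is shown with 20 bases on each side and the match in capitals. Of 26049 genome windows of the same length, 80.54% held at least as many matches.
Tsc22d1 chr14:76478156-76478208 (plus strand): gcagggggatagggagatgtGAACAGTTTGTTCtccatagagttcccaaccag

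Genes for known partners of the family were called one or a few at a time. Of 12 genes for NRBP proteins, WNK kinases, their target kinases and the cation-chloride cotransporters, corticosterone raised Wnk1 (log2 fold change 0.22) and lowered the cotransporter gene Slc12a2 (-0.39) among 10 tested in PU.1+ nuclei, against 7.81% of all genes called there. It raised Wnk2 in GFAP+ nuclei (0.53, 1 of 10, against 2.93% of all genes) and Wnk2 (0.52) and Slc12a2 (0.37) in 3X- nuclei (2 of 10, against 7.48%). In NeuN+ nuclei 0 of 11 passed, where 2.06% of all genes did. At CFC30, Slc12a2 rose in hippocampal NeuN+ nuclei (0.20, 1 of 11, against 8.56%), Wnk2 rose (0.19) and the kinase gene Stk39 fell (-0.14) in mPFC NeuN+ nuclei (10 tested, against 24.7%), and none of the 10 and 9 tested in hippocampal and mPFC NeuN- nuclei passed, against 2.38% and 5.85%.

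Of 10 genes that GILZ acts on or with, 2 of 9 rose in PU.1+ nuclei (Sgk1 and the ubiquitin ligase gene Nedd4l, 0.57), where 4.42% of all genes rose, and 0 of 9 in GFAP+ nuclei, where 2.03% did. In 3X- nuclei 1 of 8 rose (Sgk1, 0.99), against 5% of all genes, and the kinase gene Mapk3 fell (-0.62), against 2.47%, while 1 of 8 rose in NeuN+ nuclei (Nedd4l, 0.19), against 1.26%. At CFC30, the AP-1 gene Fos rose in mPFC NeuN- (3.32), mPFC NeuN+ (2.60) and hippocampal NeuN+ nuclei (2.54), Sgk1 rose in NeuN- nuclei of both regions and Nedd4l in mPFC NeuN+ nuclei (0.26), so that 2 of 9 genes rose in each mPFC fraction and 1 of 9 in each hippocampal one. The shares of all genes that rose were 2.68% and 13.1% in mPFC NeuN- and NeuN+ nuclei, and 1.2% and 4.67% in the hippocampus.

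Of 9 upstream regulators, 3 rose and 3 fell in PU.1+ nuclei after corticosterone, against 4.42% and 3.39% of all genes. Those that fell were Tgfb1, the cytokine that names Tsc22d1 (-0.82), the activator gene Creb1 (-0.27) and Nr3c1. Those that rose were the TGF-β receptor gene Tgfbr1 (0.20), Foxo3 (0.21), whose protein drives Gilz in other cells, and Foxo4 (0.36). Foxo3 also rose in GFAP+ nuclei (0.55, 1 of 8, against 2.03% of all genes), and the fall of Nr3c1 was the only other call in this list after corticosterone. At CFC30, Foxo1 rose in NeuN- nuclei of hippocampus (0.52) and mPFC (0.66), where the TGF-β receptor gene Tgfbr2 fell (-0.37), making 1 and 2 calls among 9 genes. Creb1 rose in hippocampal NeuN+ nuclei (0.25, 1 of 7), and in mPFC NeuN+ nuclei Tgfbr1 (0.93) and Nr3c1 (0.17) rose while the mineralocorticoid receptor gene Nr3c2 fell (-0.15), 3 of 6 tested where 24.7% of all genes were called.

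The genes whose pattern was most like that of each member were named by Pearson's r of log2(CPM + 0.5) over the 32 libraries of the corticosterone experiment, among 11353 genes. These libraries share populations and treatments, so r is a description without a test. Across all libraries, Tsc22d3 was closest to Tmc7 (0.980), Dock1 (0.977) and Zcchc24 (0.976), Tsc22d4 to Nfatc1 (0.994), Prex1 (0.994) and Bmp2k (0.993), Tsc22d2 to Mtmr3 (0.990), Snx6 (0.986) and Maml1 (0.986), and Tsc22d1 to Nrcam (0.996). After the mean of each population was subtracted, Tsc22d3 was closest to Lifr (0.925), Chka (0.914) and Washc2 (0.902), and the other members reached at most 0.777 (Tsc22d1 with Aifm3), 0.828 (Tsc22d2 with Gm4258) and 0.817 (Tsc22d4 with Jpt1). The order moved with the pseudocount. At 2 in place of 0.5, Sult1a1, a sulfotransferase gene, came first for Tsc22d3 within populations (0.956), ahead of Lifr (0.946) and Chka (0.942), and across all libraries Prex1 came first for Tsc22d4 (0.993).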

How the data were processed

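The deposited values were raw read counts per gene and library. To make them, the authors prepared stranded total RNA libraries (SMARTer Pico kit, in a different version for each brain region), trimmed the first 3 bases with Trimmomatic, aligned to GRCm38 with HISAT2, removed duplicates with Picard and counted over whole gene bodies with featureCounts, so values reflect nascent and mature nuclear RNA. Tool versions and the strand setting are not given in the sources used here. The γH2AX lists were deposited as intervals, called by the authors with MACS2 on merged replicates.

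Identifiers were named from GENCODE vM21, where 67 of 53749 had no entry, with 0.0232% to 0.0266% of the counts. Genes with a mean of over 0.2 FPKM in at least 1 group of a fit were tested with edgeR 4.0.16 (TMM, quasi-likelihood F test, Benjamini-Hochberg adjustment over all tested genes, threshold 0.05) in R 4.3.3. Effects were fitted within each population or fraction, and levels and differences between populations in 1 fit for each table. CPM use library totals. The alternatives were DESeq2 1.42.0, RLE size factors, library totals alone (chosen after seeing the data), no filter, filterByExpr, 1 fit over all groups, a replicate block, every library as deposited, and each library left out. Members of the family named in the report are all 4, and of each gene list the 3 with the smallest adjusted p were named, with some others singled out after their values were seen (Nr3c1, Fkbp5, Foxo3, Sgk1). Of the genes with a pattern most like a member, the 3 with the highest r were taken, and part of this result for Tsc22d1 is not reported here. The members and lists were chosen with earlier results of these data known. Same-numbered replicates were not treated as pairs, since in each pair of groups checked at least 1 same-numbered pair correlated at under 0.1 in its deviations from the group means (the lowest r of each pair of groups ran from -0.215 to 0.0862). This rule cannot exclude pairing. Between saline populations, the lowest r of same-numbered libraries was positive for every pair of populations (0.00278 to 0.0862). Within a population or fraction, the mean r of same-numbered libraries was highest for GFAP+ saline and corticosterone (0.128) and for mPFC NeuN- naive and CFC10 (0.128). For differently numbered libraries these means were -0.0416 and -0.0645. The lowest was for hippocampal NeuN- naive and CFC10 (-0.0396, against 0.0138 for different numbers). The authors gated the populations in turn from the same hippocampal nuclei, but tests between populations or fractions treated libraries as independent.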

Additional observations from a re-analysis of the deposited data

Results flagged for a closer look

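In a check of 52 groups of 4 libraries, each for 1 member, for a value that stands apart, 1 group was flagged. Chance flags about 1 group in 20. Groups with fewer libraries were not checked. Tsc22d4 in hippocampal NeuN- nuclei at CFC30 was at 40.7 CPM in replicate 2, against 35.2 to 36.1 CPM in the others, a gap of 0.832 of the group's range.

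The response to corticosterone differed between populations for 2 members, by tests of the difference itself. For Tsc22d3 the log2 differences were 1.27 for PU.1+ minus GFAP+, -1.95 for 3X- minus PU.1+ and -0.69 for 3X- minus GFAP+. For Tsc22d4 it was 0.44 for 3X- minus PU.1+.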

How the results depend on the processing

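The rises of Tsc22d3 after corticosterone in PU.1+ (2.02 to 2.32 with a library left out) and GFAP+ nuclei (0.81 to 1.07), of Tsc22d3 at CFC30 in mPFC NeuN- nuclei (0.81 to 1.04), and of Tsc22d1 (0.17 to 0.21) and Tsc22d2 (0.31 to 0.37) at CFC30 in mPFC NeuN+ nuclei kept their direction and call under every alternative run. The other calls of an effect within a population or fraction did not, and the cause was not tested. Of the differences between populations in the corticosterone effect, 3X- minus GFAP+ for Tsc22d3 lost its call. Those kept were PU.1+ minus GFAP+ (1.09 to 1.41 with a library left out) and 3X- minus PU.1+ (-2.10 to -1.81) for Tsc22d3. The same holds for 3X- minus PU.1+ for Tsc22d4 (0.38 to 0.49). Calls of level between populations or fractions were kept for Tsc22d3 and Tsc22d4. With DESeq2, filterByExpr and the replicate block, Tsc22d3 at CFC10 in mPFC NeuN- nuclei gave 0.73 (adjusted p = 0.0874), 0.73 (0.0806) and 0.71 (0.0505). With filterByExpr, Tsc22d3 at CFC30 in hippocampal NeuN- nuclei gave 0.61 (0.0551) and Tsc22d4 at CFC10 0.39 (0.0583). With RLE size factors Tsc22d4 in these nuclei gave 0.37 (0.054) at CFC10 and 0.30 (0.051) at CFC30, where 1 fit over all groups gave 0.29 (0.0645), the replicate block 0.31 (0.0511) and library totals 0.30 (0.0515). In 1 fit over all groups, Tsc22d2 at CFC30 in hippocampal NeuN+ nuclei gave 0.20 (0.0957). Other values passed only under an alternative: Tsc22d3 after corticosterone in 3X- nuclei with the replicate block (0.23, 0.0433), Tsc22d3 at CFC10 in hippocampal NeuN- nuclei without the filter (0.48, 1.55e-07) and Tsc22d1 at CFC10 in hippocampal NeuN+ nuclei with library totals (0.15, 0.0343). The second of these should be read with caution. That unfiltered fit called 514 genes, against 51 with the filter. Filtered fits with a library left out gave Tsc22d3 0.26 to 0.55 there (adjusted p 0.0937 to 0.365). The replicate block changed no other call of a member. Library totals turned the saline difference between GFAP+ and NeuN+ nuclei to 0.082 for Tsc22d1 and to 0.33 for Tsc22d2.

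With each library left out in turn, log2 fold changes ranged from 0.14 to 0.23 for Tsc22d2 at CFC30 in hippocampal NeuN+ nuclei, from 0.42 to 0.88 for Tsc22d3 at CFC10 in mPFC NeuN- nuclei, from 0.53 to 0.69 for Tsc22d3 and from 0.24 to 0.34 for Tsc22d4 at CFC30 in hippocampal NeuN- nuclei, from 0.31 to 0.41 for Tsc22d4 at CFC10 there, from -0.32 to -0.22 for Tsc22d4 in PU.1+ nuclei and from 0.19 to 0.30 for Tsc22d3 in 3X- nuclei. Tsc22d4 in NeuN+ nuclei came over the filter and was called without hippocampal CFC10 replicate 2 (0.63 at CFC10 and 0.45 at CFC30) and without mPFC CFC10 replicate 3 (0.58 at CFC10). Each was the lowest CFC10 library of its group for this gene (2.56 and 3.33 CPM). Leaving it out raised the CFC10 mean past the filter and the CFC10 effect together, so these calls are tied to that choice. With all libraries, no alternative called Tsc22d4 in NeuN+ nuclei after CFC.

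Counts of all genes called moved more than the members. Against 51 genes called at CFC10 in hippocampal NeuN- nuclei, DESeq2 called 171, filterByExpr 23, no filter 514, 1 fit 380, the replicate block 180, library totals 27 and every library as deposited 468. At CFC30 there, against 352, the last gave 930, no filter 917, 1 fit 690 and the block 600. In mPFC NeuN- nuclei, 254 became 142 with filterByExpr, 751 without the filter and 519 in 1 fit at CFC10, and 870 became 1486 and 1326 at CFC30. In NeuN+ nuclei, 604 became 1032 without the filter and 242 in 1 fit (CFC10, hippocampus), and 1 fit turned 1064 into 622 (CFC30, hippocampus) and 1876 into 1150 (CFC10, mPFC). After corticosterone, 261 in NeuN+ nuclei became 164 with DESeq2, 47 in 1 fit and 396 with the block, and no filter turned 425 into 711 (GFAP+) and 1091 into 2782 (3X-). Between CFC30 and CFC10, no filter turned 37 into 96 and 167 into 375 (NeuN+, hippocampus and mPFC) and 104 into 514 (NeuN-, mPFC), while 25 in hippocampal NeuN- nuclei became 69 with DESeq2, 43 as deposited, 5 with filterByExpr and 213 without a filter. The 5 genes with a different CFC10 effect in hippocampal NeuN- and NeuN+ nuclei became 3 with the block. With 1 library left out, in NeuN- nuclei the 51 ranged from 3 to 76 and the 352 from 61 to 529 in the hippocampus, and the 254 from 28 to 334 and the 870 from 402 to 1080 in the mPFC, each lowest without a naive library (also, for the 51, without CFC10 replicate 3). In NeuN+ nuclei at CFC10 the 604 ranged from 190 to 925 in the hippocampus and the 1876 from 1180 to 1859 in the mPFC, the 1064 at CFC30 in the hippocampus from 618 to 1247, and the 425 in GFAP+ nuclei from 231 to 492. The shares of genes called printed beside the members move with these counts. Low counts limit Tsc22d3 in NeuN+ nuclei, at 3 to 23 per library, and Tsc22d4 there to a lesser degree.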
